A study of Arabidopsis thaliana with 21 samples.

Results

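The genes described here are 9 genes of polyamine synthesis in *Arabidopsis* seedlings, chosen by locus from a count table of 33655 features: *ADC1* (AT2G16500), *ADC2* (AT4G34710), *SAMDC1* (AT3G02470), *SAMDC2* (AT5G15950), *SAMDC3* (AT3G25570), *SPDS1* (AT1G23820), *SPDS2* (AT1G70310), *SPMS* (AT5G53120) and *ACL5* (AT5G19530). They were chosen for their role in the pathway, with their counts in all 7 groups of libraries in view and without a threshold on any value, so their levels and changes are a description of these 9 genes and no support for a statement on the pathway. All 9 passed the filter on low counts, with 100 to 56886 counts per gene and library.

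The study examined how the kinase-like SPA proteins, the ubiquitin ligase COP1 and the red light receptor phyB act together on light signalling. Each group held 3 libraries of 3-day-old seedlings. In red light these were *spaQ*, the quadruple mutant of *SPA1* to *SPA4*, *cop1-4*, a weak allele of *COP1*, and the wild type Col-0. The other 4 groups were *phyB-GFP ΔC*, which lacks the C-terminal end of phyB, and *phyB-GFP FL*, the full-length receptor, each in red light and in darkness. Both transgenes were carried in the *phyA-211 phyB-9* double mutant, so neither line has functional endogenous phyA or phyB, and the transgene promoter and which transformant was sequenced are not given in the sources used here. All seedlings had received far-red light (10 µmol) after the induction of germination, and those of the red light groups were given 1 h of red light (8 µmol per the labels, where the methods give a lower value) after days of darkness. Dark libraries of *spaQ*, *cop1-4* and Col-0 were not analysed here, so the mutants could be compared with Col-0 in red light only.

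Polyamines are small, positively charged molecules found in every living cell, where they bind nucleic acids and act in growth and stress responses. In *Arabidopsis*, arginine decarboxylases (ADC) start the synthesis of putrescine from arginine, and S-adenosylmethionine decarboxylases (SAMDC) supply the aminopropyl groups that spermidine synthases (SPDS) attach to putrescine. Spermine synthase (SPMS) and the thermospermine synthase ACL5 add a further aminopropyl group to spermidine, and thermospermine is known for holding back xylem differentiation.

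Libraries held 15678019 to 29523833 counts. The labels could be checked in part: *SPA1* averaged 43.6 ± 2.16 CPM in *spaQ* and 339 ± 6.37 CPM in Col-0, *SPA3* 26.8 ± 1.72 CPM in *spaQ* and 164 ± 4.64 CPM in Col-0, and *COP1* 41.5 ± 1.53 CPM in *cop1-4* and 74.5 ± 2.02 CPM in Col-0 (SD, n = 3 each; CPM are counts scaled to a common library size over all 21 libraries). *SPA2* and *SPA4* were not lower in *spaQ* than in Col-0 at the level of counts. The *phyB-GFP* lines are not described as mutated in these genes. In darkness *SPA1* averaged 29.6 CPM in FL and 39.0 in ΔC, and *SPA3* 24.2 and 32.2. In red light *SPA1* averaged 166 and 125 CPM, and *SPA3* 98 and 69.8. *COP1* averaged 33.4 to 49.8 CPM in the 4 groups of these lines. A low level of these genes therefore does not by itself mark the mutants. *PHYB* averaged 1131 to 1307 CPM in the 4 groups of the *phyB-GFP* lines and 145 CPM in Col-0. One library stood apart: *phyB-GFP FL* in red light, replicate 3, differed from the other replicates of its group with a chi-square per gene of 19.2 and 30.7, against 4.5 between those 2. Calls and adjusted p that rest on it are given with and without it. No label says that replicates came from separate cultures, so p-values measure the spread between these libraries only.

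In the dark-grown mutants exposed to red light, the arginine decarboxylase *ADC2* and the decarboxylase *SAMDC2* were far below Col-0, and the spermidine synthase *SPDS2* was above it. In *spaQ*, 4 of the 9 genes fell (*ADC2*, *SAMDC2*, *SAMDC3* and *SPMS*) and 1 rose (*SPDS2*). In *cop1-4*, 2 fell (*ADC2* and *SAMDC2*) and 1 rose (*SPDS2*). A gene was called where edgeR's quasi-likelihood test gave an adjusted p under 0.05 (Benjamini-Hochberg, over the 20396 genes tested) together with a change of more than 2-fold. Of those genes, 15% were called higher and 17.5% lower in *spaQ*, and 10.7% higher and 13.1% lower in *cop1-4*. The median of the 9 log2 fold changes was -0.50 in *spaQ* and -0.14 in *cop1-4*, against 0.01 and 0.0034 over all genes. With the adjusted p alone, all 9 genes passed in each mutant, as did 79.4% of all genes in *spaQ* and 72.9% in *cop1-4*. Both comparisons share the Col-0 libraries.

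**Figure D1:**
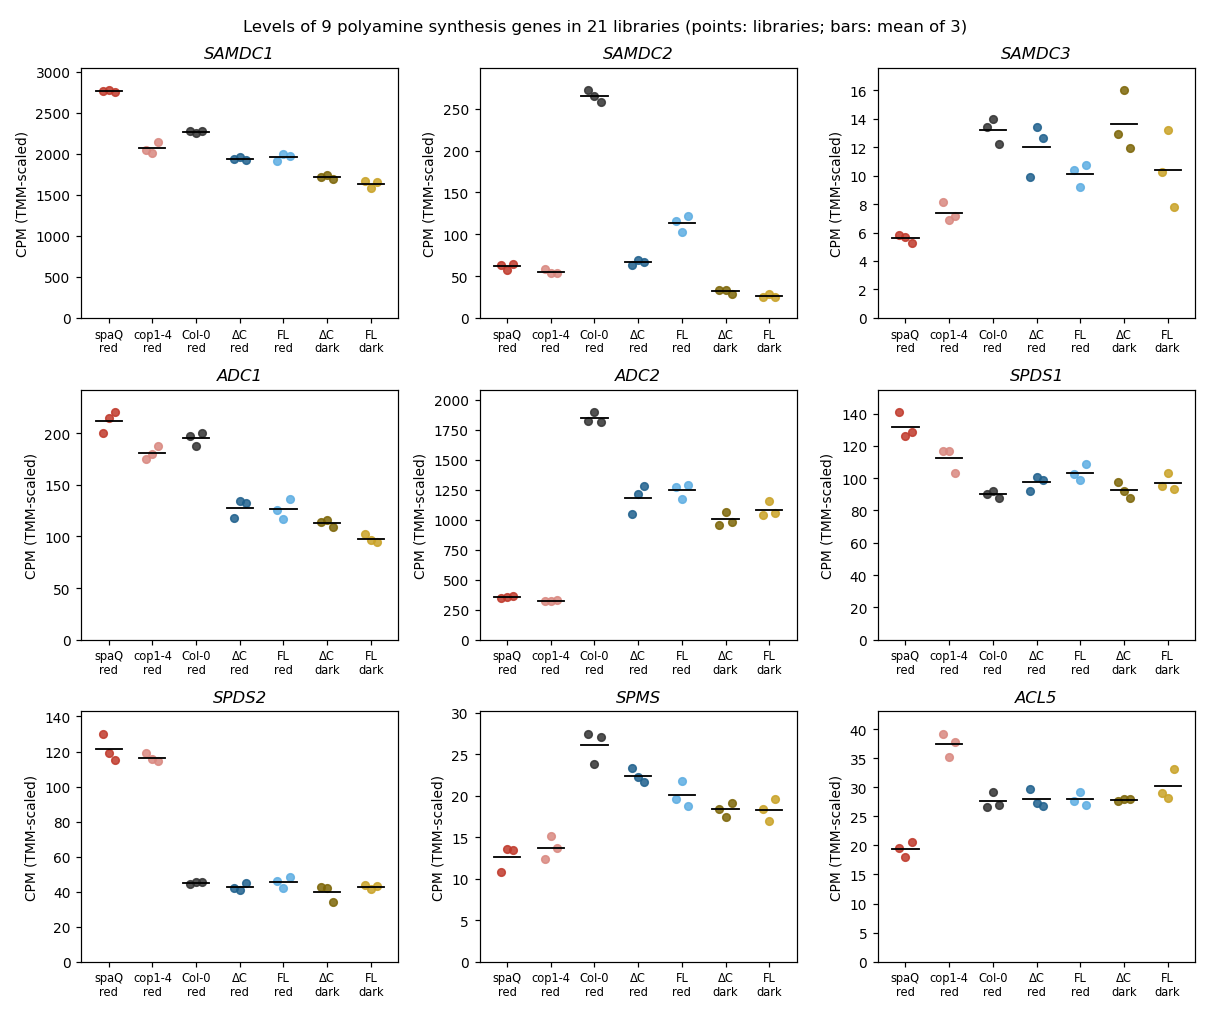
Level of each of the 9 genes in CPM, linear axes from 0, in the 21 libraries, with *spaQ*, *cop1-4* and Col-0 in red light, then *phyB-GFP ΔC* (ΔC) and *phyB-GFP FL* (FL) in red light and in darkness. Points are libraries and black bars the mean of 3. *ADC2* lay between 325 and 368 CPM in the mutants and at 959 CPM or more in every other library, and *SAMDC2* was highest in Col-0 and lowest in both lines in darkness.

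*ADC2*, the stress-inducible arginine decarboxylase, had 348, 356 and 368 CPM in *spaQ* and 326, 325 and 329 CPM in *cop1-4*, against 1823, 1897 and 1819 CPM in Col-0. The 6 mutant libraries did not overlap with Col-0. *ADC2* was 5.16-fold lower in *spaQ* (log2 fold change -2.37 ± 0.0481 SE, adjusted p = 5.12e-24) and 5.67-fold lower in *cop1-4* (-2.50 ± 0.0485, adjusted p = 3.47e-24). Of the 20396 genes, 1129 fell further than *ADC2* in *spaQ* and 593 in *cop1-4*. Its paralog *ADC1* had 201, 214 and 220.3 CPM in *spaQ* and 175, 179.7 and 188 CPM in *cop1-4*, against 197, 187 and 201 CPM in Col-0. The ranges of *ADC1* overlapped between *cop1-4* and Col-0, and those of *spaQ* and Col-0 met. Its log2 fold changes were 0.12 ± 0.0493 in *spaQ* (adjusted p = 0.0274) and -0.11 ± 0.0499 in *cop1-4* (adjusted p = 0.0442), neither past the fold limit. Leaving out 1 library took the adjusted p of *ADC1* up to 0.145 in *spaQ* (without Col-0 replicate 2) and 0.163 in *cop1-4* (without Col-0 replicate 3). Scaled by library size alone, the *spaQ* value of *ADC1* was -0.13, so its direction depends on the scaling.

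Per kilobase of annotated exon, *ADC2* stood at 118 ± 3.38 CPM in *spaQ*, 108 ± 0.702 in *cop1-4* and 612 ± 14.6 in Col-0, and *ADC1* at 72.6 ± 3.49 in *spaQ*, 62.0 ± 2.16 in *cop1-4* and 66.8 ± 2.35 in Col-0 (SD, n = 3). *ADC2* therefore held 62.0% ± 0.572 of the arginine decarboxylase transcript level in *spaQ* and 63.6% ± 0.679 in *cop1-4*, against 90.2% ± 0.515 in Col-0. The summed level of both genes per kilobase was 191 ± 6.75 CPM in *spaQ* and 170 ± 2.78 CPM in *cop1-4*, against 679 ± 12.3 CPM in Col-0. The coding sequences of *ADC1* and *ADC2* are 81.3% identical, and the longest run of bases their transcripts share exactly is 40. How reads that match both genes in such runs were counted is not given in the sources used here.

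*SAMDC2* had 63.4, 57.6 and 64.4 CPM in *spaQ* and 58.2, 53.7 and 53.7 CPM in *cop1-4*, against 272, 265 and 258 CPM in Col-0. All mutant libraries were below all Col-0 libraries. It was 4.28-fold lower in *spaQ* (log2 fold change -2.10 ± 0.0518, adjusted p = 2.44e-22) and 4.82-fold lower in *cop1-4* (-2.27 ± 0.0533, adjusted p = 1.67e-22). *SAMDC1*, the most abundant of the 9 transcripts per kilobase in every group, did not follow. It had 2767, 2775 and 2759 CPM in *spaQ* and 2046, 2013 and 2143 CPM in *cop1-4*, against 2280, 2260 and 2275 CPM in Col-0. The *spaQ* libraries were all above Col-0 and the *cop1-4* libraries all below it. The log2 fold changes, 0.29 ± 0.0458 in *spaQ* (adjusted p = 3.1e-06) and -0.14 ± 0.0458 in *cop1-4* (adjusted p = 0.00786), were under the fold limit. Scaled by library size alone, the *spaQ* difference was 0.038 (adjusted p = 0.36).

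*SAMDC3*, the least abundant of the 3 decarboxylase genes per kilobase, had 5.84, 5.67 and 5.27 CPM in *spaQ* and 8.15, 6.85 and 7.16 CPM in *cop1-4*, against 13.4, 14.0 and 12.2 CPM in Col-0. The 3 groups did not overlap. It was 2.35-fold lower in *spaQ* (log2 fold change -1.23 ± 0.105, adjusted p = 5.12e-11), and its *cop1-4* value of -0.85 ± 0.104 (adjusted p = 6.45e-08) was under the fold limit. Summed over *SAMDC1* to *SAMDC3* per kilobase, the level was 1357 ± 2.42 CPM in *spaQ* and 1020 ± 32.0 CPM in *cop1-4*, against 1223 ± 6.7 CPM in Col-0. *SAMDC2* made up 2.22% ± 0.135 of this sum in *spaQ* and 2.64% ± 0.162 in *cop1-4*, against 10.6% ± 0.234 in Col-0. The coding sequences of *SAMDC1* and *SAMDC2* are 79.2% identical, and the longest run of bases their transcripts share exactly is 36. How reads that match both genes in such runs were counted is not given in the sources used here, and *SAMDC1* was by far the more abundant. The 3 loci of the small upstream open reading frames that control SAMDC translation were looked for, but none was among the genes tested.

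**Figure D2:**
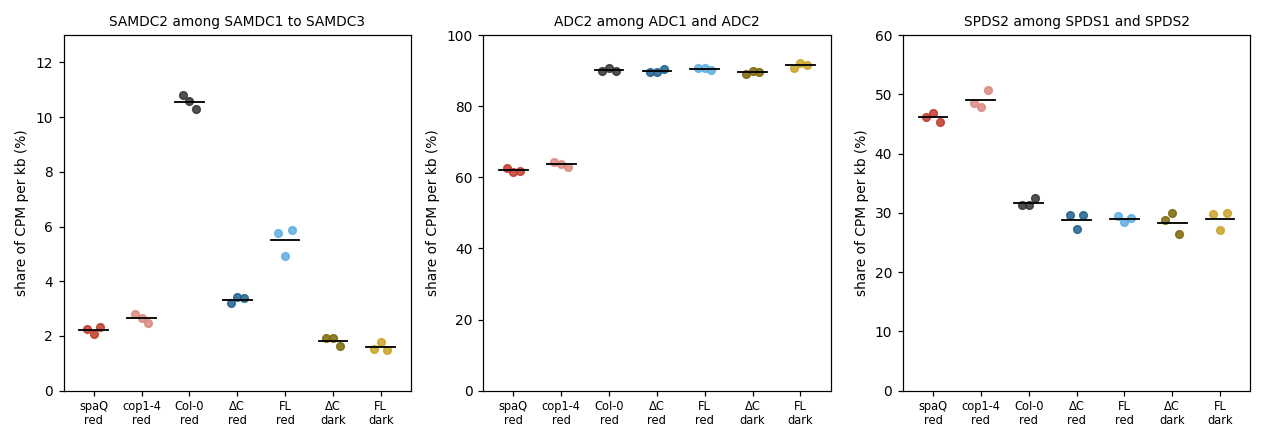
Share of *SAMDC2* among *SAMDC1* to *SAMDC3*, of *ADC2* among both arginine decarboxylase genes and of *SPDS2* among both spermidine synthase genes, in % of the summed CPM per kilobase of exon, for the 21 libraries; points are libraries and bars the mean of 3. The *SAMDC2* share was 10.3% to 10.8% in Col-0 and at most 5.88% elsewhere, and the *ADC2* share was 61.6% to 64.3% in the mutants and 89.1% to 92.0% elsewhere.

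The genes of each pair of paralogs differed in their changes, so the 250 bases before the annotated gene start are shown for *SAMDC1* and *SAMDC2*, for *SPDS1* and *SPDS2*, and for *ADC2*, the gene that fell most. They were read 5′ to 3′ on the strand of the gene from the RefSeq genome TAIR10.1: *SAMDC1* at chr3:508636-508885 (+), *SAMDC2* at chr5:5205619-5205868 (+), *ADC2* at chr4:16563045-16563294 (-), *SPDS1* at chr1:8420015-8420264 (+) and *SPDS2* at chr1:26487596-26487845 (-). Capitals mark the G-box CACGTG, the core element bound by bZIP and bHLH factors such as HY5 and the PIFs. The PIF-binding E-box CACATG and the evening element AAAATATCT were searched for in the same windows, all 3 on both strands. These motifs were picked with the values in view.
SAMDC1: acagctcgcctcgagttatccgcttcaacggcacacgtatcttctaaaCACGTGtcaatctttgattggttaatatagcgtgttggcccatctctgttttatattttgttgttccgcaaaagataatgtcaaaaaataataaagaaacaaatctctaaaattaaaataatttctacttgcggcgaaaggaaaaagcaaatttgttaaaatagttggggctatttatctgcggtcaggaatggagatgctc
SAMDC2: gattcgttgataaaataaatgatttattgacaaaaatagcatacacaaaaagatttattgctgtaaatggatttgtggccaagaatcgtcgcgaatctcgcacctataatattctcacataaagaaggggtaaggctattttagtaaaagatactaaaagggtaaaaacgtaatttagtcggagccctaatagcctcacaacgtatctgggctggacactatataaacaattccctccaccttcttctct
ADC2: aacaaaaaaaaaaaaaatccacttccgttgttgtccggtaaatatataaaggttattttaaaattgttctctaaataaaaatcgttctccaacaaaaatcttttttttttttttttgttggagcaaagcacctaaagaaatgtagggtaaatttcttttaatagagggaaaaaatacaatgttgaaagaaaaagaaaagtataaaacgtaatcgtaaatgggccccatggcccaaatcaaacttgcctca
SPDS1: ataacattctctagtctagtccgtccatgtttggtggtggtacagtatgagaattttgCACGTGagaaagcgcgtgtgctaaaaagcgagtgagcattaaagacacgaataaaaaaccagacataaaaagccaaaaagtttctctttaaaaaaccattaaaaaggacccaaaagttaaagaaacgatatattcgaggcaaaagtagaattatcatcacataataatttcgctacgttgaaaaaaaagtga
SPDS2: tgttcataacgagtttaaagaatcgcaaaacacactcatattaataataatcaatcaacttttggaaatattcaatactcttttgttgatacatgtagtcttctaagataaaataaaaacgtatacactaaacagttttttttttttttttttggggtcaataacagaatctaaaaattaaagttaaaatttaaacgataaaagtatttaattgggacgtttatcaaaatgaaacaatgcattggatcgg

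Among the windows of all 9 genes, the G-box was found in those of *SAMDC1*, 202 to 197 bases before the gene start, and *SPDS1*, 192 to 187 bases before it, and neither of the other motifs was found in any. Over 27443 windows of the same length, 6.49% held the G-box, 11.1% the E-box and 2.36% the evening element. *SAMDC1* lies at chromosome 3, 508886 to 511561, *SAMDC2* at chromosome 5, 5205869 to 5208036, *ADC2* at chromosome 4, 16560030 to 16563044, *SPDS1* at chromosome 1, 8420265 to 8422985, and *SPDS2* at chromosome 1, 26485238 to 26487595. A match is a description of the sequence and not a site of binding.

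*SPDS2* had 129.9, 119 and 115 CPM in *spaQ* and 119, 116 and 115 CPM in *cop1-4*, against 44.4, 45.3 and 45.5 CPM in Col-0. Every mutant library was above every Col-0 library. It was 2.7-fold higher in *spaQ* (log2 fold change 1.44 ± 0.0513, adjusted p = 5.82e-19) and 2.58-fold higher in *cop1-4* (1.37 ± 0.0519, adjusted p = 3.54e-18). *SPDS1* had 141, 126 and 129 CPM in *spaQ* and 117, 117 and 103 CPM in *cop1-4*, against 90.2, 92.2 and 87.7 CPM in Col-0. Its mutant libraries were above Col-0 as well, with log2 fold changes of 0.55 ± 0.0539 in *spaQ* (adjusted p = 7.16e-10) and 0.32 ± 0.0549 in *cop1-4* (adjusted p = 1.39e-05), both under the fold limit. Per kilobase, both spermidine synthase genes together stood at 173 ± 10.3 CPM in *spaQ* and 156 ± 6.69 CPM in *cop1-4*, against 93.1 ± 1.56 CPM in Col-0. *SPDS2* held 46.1% ± 0.685 of that level in *spaQ* and 49.1% ± 1.48 in *cop1-4*, against 31.7% ± 0.672 in Col-0. The coding sequences of *SPDS1* and *SPDS2* are 84.8% identical. *SPDS1* also overlaps an antisense RNA gene over 688 bases, which had 1 to 11 counts per library.

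*SPMS*, which RefSeq names *SPDS3*, had 10.8, 13.6 and 13.4 CPM in *spaQ* and 12.3, 15.1 and 13.7 CPM in *cop1-4*, against 27.4, 23.8 and 27.1 CPM in Col-0. Both mutants were below Col-0 and overlapped with each other. It was 2.07-fold lower in *spaQ* (log2 fold change -1.05 ± 0.0911, adjusted p = 7.3e-11) and had a log2 fold change of -0.93 ± 0.0929 in *cop1-4* (adjusted p = 1.64e-09), on either side of the fold limit. Without *spaQ* replicate 1 the *spaQ* value was -0.95 and no longer called, and without *cop1-4* replicate 2 the *cop1-4* value was -1.01 and called.

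*ACL5* went in opposite directions in the mutants. It had 19.6, 17.9 and 20.7 CPM in *spaQ* and 39.1, 35.2 and 37.8 CPM in *cop1-4*, against 26.7, 29.1 and 26.9 CPM in Col-0. The 3 groups did not overlap, with *spaQ* lowest and *cop1-4* highest of all 7 groups. The log2 fold change was -0.50 ± 0.0700 in *spaQ* (adjusted p = 3.83e-07) and 0.43 ± 0.0661 in *cop1-4* (adjusted p = 2.12e-06), both under the fold limit. Compared directly, *ACL5* was lower in *spaQ* than in *cop1-4* by a log2 fold change of -0.94 ± 0.0702 (adjusted p = 3.11e-11), a 1.91-fold difference. *SPMS* and *ACL5* overlap neighbouring genes on the opposite strand over 96 and 196 bases. Whether reads were counted by strand, and how reads in such overlaps were assigned, is not given in the sources used here. The counts of both genes are therefore uncertain over those bases.

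*ACL5* is known from the procambium. Xylem and procambium markers were lower in sum in both mutants, whereas *ACL5* was lower in *spaQ* and higher in *cop1-4*. The summed level of 7 such markers was 107 to 113 CPM in *spaQ* and 153 to 159.8 CPM in *cop1-4*, against 313 to 324 CPM in Col-0. In *spaQ* 6 of 7 were called lower and in *cop1-4* 5 of 7, beside 17.5% and 13.1% of all genes. In the *phyB-GFP* lines the sum was 254 to 334 CPM. The summed level of 3 root hair markers was 51.1 to 57.9 CPM in *spaQ* and 25.3 to 32.3 CPM in *cop1-4*, against 11.3 to 13.2 CPM in Col-0. That of 4 seed storage and oil body genes was 1151 to 2102 CPM in *spaQ* and 1.92 to 136 CPM in *cop1-4*, against 188 to 376 CPM in Col-0. The sum of *PORA* and *PIL1*, both high in etiolated seedlings, was 4.14 to 7.71 CPM in *spaQ* and 2.68 to 4.52 CPM in *cop1-4*, against 1211 to 1271 CPM in Col-0. *PIL1* alone averaged 1.75 CPM in *spaQ*, 1.29 CPM in *cop1-4* and 4.09 CPM in Col-0, so the Col-0 sum was nearly all *PORA*. None of these markers was at 0 in all libraries of a group. Their part in the values of the 9 genes was not tested, and in whole seedlings fewer cells of a type and less RNA per cell cannot be told apart.

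Between the mutants themselves, none of the 9 genes was called in *spaQ* against *cop1-4* by edgeR or by DESeq2, where 2.88% of all genes were called higher and 5.63% lower. Without the fold limit 7 of the 9 genes passed the adjusted p, beside 52.8% of all genes. At an unadjusted p under 0.05 there were also 7, with no share of all genes to set beside them. *SAMDC1* was higher in *spaQ* than in *cop1-4* by a log2 fold change of 0.43 ± 0.0459 (adjusted p = 1.8e-08), *ADC1* by 0.23 ± 0.0499 (adjusted p = 3.16e-04) and *SPDS1* by 0.24 ± 0.0542 (adjusted p = 6.37e-04). *ADC2* and *SAMDC2*, the genes that fell most in both mutants, were slightly higher in *spaQ*, by 0.14 ± 0.0467 (adjusted p = 0.0172) and 0.17 ± 0.0562 (adjusted p = 0.0126), and *SAMDC3* was lower, by -0.39 ± 0.12 (adjusted p = 0.00859). These 3 small differences missed the adjusted p limit in a fit of all 21 libraries (0.175 for *ADC2*, 0.0965 for *SAMDC2* and 0.0727 for *SAMDC3*) and in at least 1 fit without a library, as without *spaQ* replicate 3 for *ADC2* (0.0921) and *SAMDC2* (0.0741) and without *cop1-4* replicate 1 for *SAMDC3* (0.058). *SPDS2* and *SPMS* did not pass, with log2 fold changes of 0.07 ± 0.0487 (adjusted p = 0.236) and -0.12 ± 0.103 (adjusted p = 0.328).

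**Figure D3:**
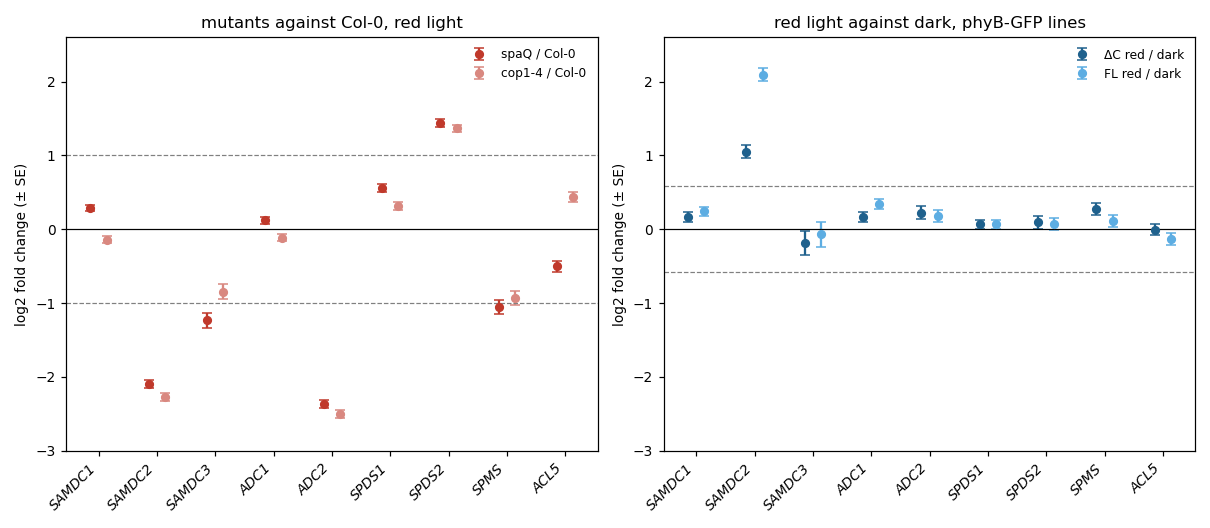
log2 fold change ± SE of each of the 9 genes from the edgeR fits: on the left *spaQ* and *cop1-4* against Col-0 in red light (9 libraries), on the right red light against dark in *phyB-GFP ΔC* and *phyB-GFP FL* (12 libraries). Dashed lines mark the fold limits of 2-fold and 1.5-fold; *SAMDC2* was past them in all 4 comparisons, at -2.10, -2.27, 1.05 and 2.09.

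To ask which of the 9 genes respond to 1 h of red light and whether the response differs between the *phyB-GFP* lines, these were compared in red light and darkness. The deletion and other differences between the transgenic lines cannot be told apart here. Of the 9 genes, *SAMDC2* alone was called, and in both lines, at an adjusted p under 0.05 and a change over 1.5-fold. In *phyB-GFP ΔC*, 1.59% of the 20459 genes tested were called higher and 1.3% lower in red light, and in *phyB-GFP FL* 3.28% were called higher and 1.72% lower. In *phyB-GFP ΔC*, *SAMDC2* had 62.9, 68.6 and 67.1 CPM in red light, against 33.1, 33.9 and 28.1 CPM in darkness. In *phyB-GFP FL* it had 115, 103 and 122 CPM in red light, against 25.4, 28.5 and 24.5 CPM in darkness. Red light and dark libraries did not overlap in either line, and the red light libraries of *phyB-GFP ΔC* were all below those of *phyB-GFP FL*.

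*SAMDC2* rose 2.07-fold in red light in *phyB-GFP ΔC* (log2 fold change 1.05 ± 0.0864, adjusted p = 3.29e-06) and 4.26-fold in *phyB-GFP FL* (2.09 ± 0.0894, adjusted p = 2.19e-09). In *phyB-GFP FL*, 93 genes rose more. The response was smaller in *phyB-GFP ΔC* by 1.04 on the log2 scale (interaction -1.04 ± 0.123, 95% interval -1.3 to -0.775, adjusted p = 0.00388). *SAMDC2* was thereby 1 of 21 genes, 0.103% of those tested, whose red light response differed between the lines. Leaving out 1 library moved that count between 6 (without *phyB-GFP FL* dark replicate 1 or 3) and 38 (without *phyB-GFP FL* red light replicate 2), and *SAMDC2* was among them each time. In red light itself, *SAMDC2* was 1.71-fold lower in *phyB-GFP ΔC* than in *phyB-GFP FL* (-0.77 ± 0.0845, adjusted p = 2.62e-04). In darkness the difference was 0.27, with a 95% interval of 0.077 to 0.46 and an adjusted p of 0.176. Without *phyB-GFP FL* red light replicate 3, the library that stood apart, the response in *phyB-GFP FL* was 2.03 (adjusted p = 1.35e-09), the difference in red light -0.71 (adjusted p = 4.08e-04) and the interaction -0.98 (adjusted p = 0.00276).

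**Figure D4:**
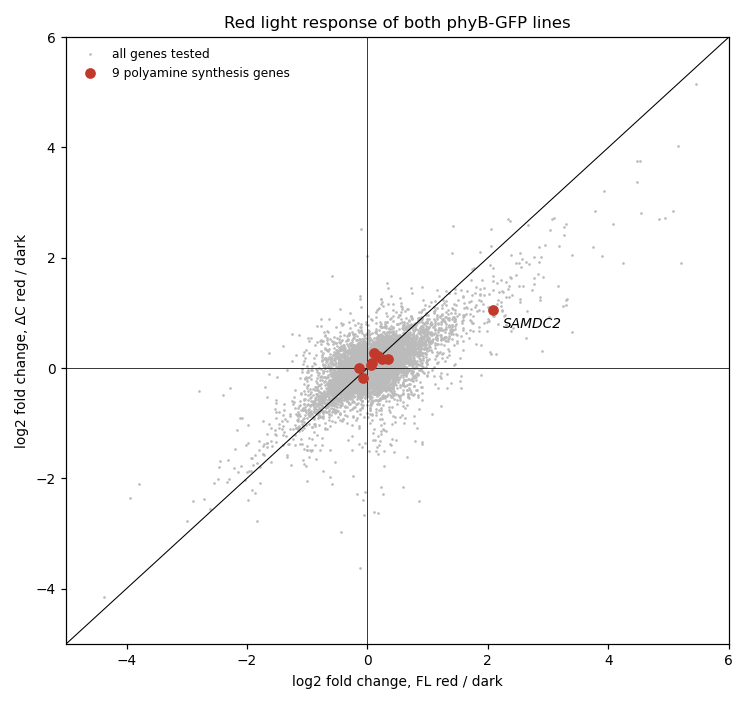
log2 fold change of red light against dark in *phyB-GFP FL* (horizontal) and in *phyB-GFP ΔC* (vertical) for 20456 genes (3 lie outside the axes); red points are the 9 polyamine synthesis genes and the diagonal marks equal responses. *SAMDC2* lies at 2.09 and 1.05, below the diagonal, and the other 8 genes lie near the origin.

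The other 8 genes changed little with red light. *ADC1* had 118, 134 and 132 CPM in red light, against 114, 116 and 109 CPM in darkness in *phyB-GFP ΔC*, where the groups lay apart by a small margin. In *phyB-GFP FL* it had 125, 117 and 136 CPM in red light, against 102, 97.0 and 94.6 CPM in darkness, without overlap. Its log2 fold change was 0.17 ± 0.0704 in *phyB-GFP ΔC* (adjusted p = 0.281) and 0.34 ± 0.071 in *phyB-GFP FL* (adjusted p = 0.00616), and the difference between the lines was -0.17 with a 95% interval of -0.39 to 0.043 (adjusted p = 0.999). *SAMDC1* likewise had 1936, 1963 and 1931 CPM in red light, against 1717, 1744 and 1692 CPM in darkness in *phyB-GFP ΔC*. In *phyB-GFP FL* it had 1912, 2004 and 1975 CPM in red light, against 1671, 1578 and 1657 CPM in darkness. The groups did not overlap in either line, with log2 fold changes of 0.17 ± 0.066 in *phyB-GFP ΔC* (adjusted p = 0.239) and 0.24 ± 0.0661 in *phyB-GFP FL* (adjusted p = 0.0355). With the adjusted p alone, *SAMDC2*, *ADC1* and *SAMDC1* thus passed in *phyB-GFP FL*, beside 8.92% of all genes. The *SAMDC1* value was close to the limit: its adjusted p was 0.109 with the replicate block, 0.202 with only the groups compared and up to 0.146 without 1 library (*phyB-GFP FL* dark replicate 2). Without *phyB-GFP FL* red light replicate 3, the response in *phyB-GFP FL* was 0.285 for *ADC1* (adjusted p = 0.0158) and 0.237 for *SAMDC1* (adjusted p = 0.0429).

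*ADC2*, the gene that differed most between the mutants and Col-0, was not called in the light response. It had 1045, 1212 and 1284 CPM in red light, against 959, 1069 and 983 CPM in darkness in *phyB-GFP ΔC*, and 1277, 1176 and 1292 CPM in red light, against 1037, 1160 and 1056 CPM in darkness in *phyB-GFP FL*. The 95% interval of its log2 response was 0.037 to 0.41 in *phyB-GFP ΔC* (adjusted p = 0.227) and -0.0070 to 0.37 in *phyB-GFP FL* (adjusted p = 0.296). For *SPDS2* the interval was -0.091 to 0.28 in *phyB-GFP ΔC* and -0.12 to 0.26 in *phyB-GFP FL*. For *SPMS* it was 0.1 to 0.46 in *phyB-GFP ΔC* (adjusted p = 0.0802, or 0.048 without *phyB-GFP FL* red light replicate 3) and -0.075 to 0.29 in *phyB-GFP FL*. *SAMDC3*, with the fewest counts, had the widest intervals, -0.54 to 0.17 in *phyB-GFP ΔC* and -0.45 to 0.31 in *phyB-GFP FL*. *SPDS1* and *ACL5* lay at 0.064 and -0.0064 in *phyB-GFP ΔC* and at 0.064 and -0.13 in *phyB-GFP FL*.

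Between the lines in darkness, none of the 9 genes was called by edgeR or by DESeq2, and 0.587% of all genes were called higher and 0.601% lower in *phyB-GFP ΔC*. None passed the adjusted p alone, beside 1.88% of all genes. At an unadjusted p under 0.05 there were 3 of the 9. No share of all genes is at hand for that count, so it cannot be read as an excess. In red light *SAMDC2* was the only one of the 9 genes called, and 0.596% of all genes were called higher and 1.08% lower. The median of the 9 log2 fold changes in red light was -0.011, against -0.0067 over all genes. Seed storage and oil body genes summed to 2.56 to 53.6 CPM in *phyB-GFP ΔC* and 257 to 748 CPM in *phyB-GFP FL* in red light, and their part in the difference of *SAMDC2* was not tested.

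Ordered from low to high over the 7 groups, *SAMDC2* was lowest in *phyB-GFP FL* in darkness (26.2 ± 2.11 CPM), followed by *phyB-GFP ΔC* in darkness (31.7 ± 3.10), *cop1-4* (55.2 ± 2.6), *spaQ* (61.8 ± 3.68), *phyB-GFP ΔC* in red light (66.2 ± 2.91), *phyB-GFP FL* in red light (113 ± 9.82) and Col-0 (265 ± 6.91; SD, n = 3 each). *cop1-4*, *spaQ* and *phyB-GFP ΔC* in red light were neighbours that overlapped, as did both lines in darkness. For *ADC2* the order was *cop1-4* (327 ± 2.12 CPM), *spaQ* (357 ± 10.2), *phyB-GFP ΔC* in darkness (1003 ± 58.0), *phyB-GFP FL* in darkness (1084 ± 66.3), *phyB-GFP ΔC* in red light (1181 ± 123), *phyB-GFP FL* in red light (1248 ± 63.1) and Col-0 (1846 ± 43.7). The 4 *phyB-GFP* groups overlapped with their neighbours, and *cop1-4*, *spaQ* and Col-0 stood apart. *ADC2* in the mutants was thus below its level in dark-grown seedlings of both lines, which differ from the mutants in genotype as well as in light. *SPDS2* was highest in *spaQ* and *cop1-4*, which overlapped, and lay between 33.9 and 48.2 CPM in the other 15 libraries.

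The 9 genes followed several patterns over the 21 libraries. Pearson correlations of log2 CPM, given as descriptions because libraries of 1 group share their genotype and light, were 0.912 between *ADC2* and *SPMS*, -0.92 between *ADC2* and *SPDS2*, 0.913 between *SAMDC1* and *ADC1*, and 0.855 between *SPDS1* and *SPDS2*. Those of *SAMDC2* with the other genes ran no further than 0.583, with *ADC1*. Outside the pathway, the genes whose pattern was most like that of *SAMDC2* were *RVE8*, a clock MYB factor (r = 0.983), and *AFP2*, an ABI5-binding protein gene (0.975). For *ADC2* they were *IAA1*, an auxin response repressor, and *ERD7*, a dehydration-induced gene (both 0.987). *SPDS2* was most like *FBP*, a fructose bisphosphatase gene (0.994), and *RbcX1*, a chaperone gene of Rubisco assembly (0.993). *SAMDC1* was most like *NRT1.7*, a nitrate transporter gene (0.974), and *TT5*, chalcone isomerase (0.973), and *ADC1* most like *MBR2* (0.987) and *PFK1*, a phosphofructokinase gene (0.986). For *SAMDC3*, *SPDS1*, *SPMS* and *ACL5* the highest values were 0.929 with AT5G13100, 0.963 with AT5G15610, 0.972 with AT2G17300 and 0.952 with *GRF11*.

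The rest of the pathway was described by lists of genes that act around the 9. Of 10 other synthesis and substrate genes, 1 was called higher and 0 lower in *spaQ*, and 1 higher and 1 lower in *cop1-4*. Among all genes, 15% were called higher and 17.5% lower in *spaQ*, and 10.7% higher and 13.1% lower in *cop1-4*. *ARGAH2*, an arginase that draws arginine towards ornithine, rose 5.49-fold in *spaQ* (log2 fold change 2.46 ± 0.0692, adjusted p = 3.85e-21) and 2.18-fold in *cop1-4* (1.13 ± 0.0777, adjusted p = 1.06e-12). It was also lower in *phyB-GFP ΔC* than in *phyB-GFP FL* in red light (-1.02 ± 0.195, adjusted p = 0.0137). Without *phyB-GFP FL* red light replicate 3, an alternative chosen after seeing the data, that difference was -0.73 ± 0.154 (adjusted p = 0.0209), and *ARGAH2* was also called in darkness (-0.66 ± 0.14, adjusted p = 0.0184). AT1G31710, a copper amine oxidase gene, was then also called lower in *phyB-GFP ΔC* than in *phyB-GFP FL* in red light (-0.69 ± 0.0991, adjusted p = 0.002). *MAT3*, which makes S-adenosylmethionine, fell 2.4-fold in *cop1-4* (-1.26 ± 0.0475, adjusted p = 2.76e-18). The median log2 fold change of this list was 0.063 in *spaQ* and -0.14 in *cop1-4*.

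Of the amine oxidase genes, whose products break polyamines down, 11 of 14 were tested. In *spaQ* 4 were called lower and in *cop1-4* 3, with 0 higher in each and median log2 fold changes of -0.58 and -0.47. The shares of all genes called lower were 17.5% in *spaQ* and 13.1% in *cop1-4*. *PAO1*, an oxidase of spermine and thermospermine, fell 13.7-fold in *spaQ* (-3.77 ± 0.212, adjusted p = 9.78e-15) and 5.03-fold in *cop1-4* (-2.33 ± 0.181, adjusted p = 1.24e-11), and the copper amine oxidase *AO1* fell 2.83-fold in *spaQ* and 2.95-fold in *cop1-4*. AT1G31710 was 3.56-fold lower in *spaQ* and also 2.45-fold lower in *spaQ* than in *cop1-4*, and *PAO4* fell 2.07-fold in *cop1-4*. Of 7 tested genes of polyamine uptake, acetylation and conjugation, 3 were called lower in *spaQ* and 1 in *cop1-4*, beside those 17.5% and 13.1% of all genes. The acyltransferase gene AT2G25150 fell 15.1-fold in *spaQ* and 4.43-fold in *cop1-4*, and the uptake transporter genes *PUT4* and *PUT5* fell 2.13-fold and 2.03-fold in *spaQ*.

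Of 8 genes of the thermospermine response and of hypusination, 1 was called lower in each mutant. Among all genes, 17.5% were called lower in *spaQ* and 13.1% in *cop1-4*. AT5G50010, a bHLH gene of the *SAC51* family through which thermospermine acts, fell 5.66-fold in *spaQ* (-2.50 ± 0.149, adjusted p = 3.24e-14) and 2.98-fold in *cop1-4* (-1.58 ± 0.137, adjusted p = 1.19e-10). Of 8 tested genes that recycle the methylthioadenosine left over by the synthases, 0 were called by edgeR in either mutant. With the adjusted p alone 6 passed in each, beside 79.4% of all genes in *spaQ* and 72.9% in *cop1-4*. In the light comparisons of the *phyB-GFP* lines these lists gave 1 call, *PUT1*, a polyamine uptake transporter gene, which rose 1.51-fold in red light in *phyB-GFP FL* (0.59 ± 0.156, adjusted p = 0.0278). Without *phyB-GFP FL* red light replicate 3 its value was 0.66 ± 0.169 (adjusted p = 0.024), and AT2G25150 was called higher in red light as well, by 0.85 in *phyB-GFP ΔC* (adjusted p = 0.0161) and 0.94 in *phyB-GFP FL* (adjusted p = 0.0174).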

How the data were processed

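RNA-seq of 21 libraries in 7 groups was analysed. Per the submitters' processing notes, FastQC, Bowtie2, TopHat and HTSeq were used with the build TAIR10. The authors deposited raw counts per gene, with no normalization. The strand mode is not given in the sources used here, and the kit named in the labels is a DNA library kit. Groups and replicate numbers came from the labels. The 9 genes and the gene lists were chosen with earlier results of these data known.

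Counts were tested with edgeR 4.0.16 (R 4.3.3): TMM factors, filterByExpr by group and the quasi-likelihood test, with p-values adjusted by Benjamini-Hochberg across every gene of a fit. The 9 red light libraries of *spaQ*, *cop1-4* and Col-0 made one fit (20396 genes) and the 12 *phyB-GFP* libraries another (20459 genes). Genes were called at an adjusted p under 0.05 and 2-fold or 1.5-fold, and the interaction without a fold limit. CPM in the text use TMM factors over all 21 libraries, so ratios of CPM and fitted fold changes can differ slightly. CPM per kilobase divide by the exon union of TAIR10.1, whose gene models also gave the positions and windows. SE come from the fit, SD from 3 libraries. Both fits were also run on counts simulated from their own means and spreads with known changes. Such a run checks the code and not whether the model holds for these libraries.

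Named genes are the 9, the mutated or reintroduced genes, at most 3 called genes with the largest change per list and comparison, and, per gene, the genes of highest correlation among genes averaging 3 or more log2 CPM (for 4 genes only the first of 2 is given). Alternatives were DESeq2 1.42.0, its size factors in edgeR, library size alone, other count filters, the replicate block, other sets of libraries in the fit, other fold limits and leaving out each library. For the other pathway genes, leaving out *phyB-GFP FL* red light replicate 3 was chosen after seeing the data.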

Additional observations from a re-analysis of the deposited data

Results flagged for a closer look

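The red light response of *SAMDC2* differed between the *phyB-GFP* lines: it was smaller in *phyB-GFP ΔC* than in *phyB-GFP FL*, with an interaction of -1.04 on the log2 scale (adjusted p = 0.00388, edgeR). It was 1 of 21 genes with such a difference among 20459 tested.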

How the results depend on the processing

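Of 1350 log2 fold changes of the 9 genes recomputed under the alternatives, 1312 kept their direction and their call (adjusted p and fold limit together), 1 lost its call, 3 gained one and 34 changed sign. In 40 of the 1350 the adjusted p alone crossed 0.05: 37 lost it, those of *ADC1*, *SAMDC1* and *SPDS1* in a mutant, of *SAMDC2*, *SAMDC3* and *ADC2* between the mutants and of *SAMDC1* in *phyB-GFP FL*, and 3 gained it, those of *SAMDC1* and *SPMS* in *phyB-GFP ΔC*. The calls of *SAMDC2*, *ADC2* and *SPDS2* in both mutants, and those of *SAMDC2* in the *phyB-GFP* lines, the interaction included, were kept at the stated limits under every alternative of normalization, filter, tool, libraries and replicate block that was run. The number of the 9 genes called moved where the limit itself moved: without a fold limit it was 9 in *spaQ* (79.4% of all genes) and 9 in *cop1-4* (72.9%) against Col-0, 7 in *spaQ* against *cop1-4* (52.8%) and 3 for red light in *phyB-GFP FL* (8.92%), and with the limits as the methods write them it was 2 in *spaQ* (11.6%) and 2 in *cop1-4* (7.36%, *SPDS2* no longer called) against Col-0, 0 for red light in *phyB-GFP ΔC* (0.557%) and 0 between the lines in red light (0.572%). With library size alone it was 5 in *cop1-4* against Col-0. That scaling shifted the median of all genes to -0.24 in *spaQ* and -0.20 in *cop1-4*, gave *ADC1* -0.128 in *spaQ*, and gave *SPMS* 0.00165 between the lines in darkness. Other sign changes were of values near 0. One fit of all 21 libraries gave *ACL5* 0.00329 for red light in *phyB-GFP ΔC* and -0.0031 between the lines in red light, *SPMS* 0.00486 between the lines in darkness, and *SPDS1* -0.0117 in the interaction. The interaction of *SPDS1* was also -0.00106 with DESeq2's size factors, -9.7e-05 with at least 10 counts in every library and -0.000638 with the replicate block. Same-numbered libraries did not deviate together in every comparison (correlations down to -0.37), so the numbers were not taken to pair them. The block changed no call of the 9 genes, though the adjusted p of *SAMDC1* in *phyB-GFP FL* became 0.109, and moved the count of interaction genes to 9, against 21 without it. DESeq2 gave 80 and the fit of all libraries 105. Between the lines, 243 genes were called in darkness and 342 in red light. Without 1 library these were 101 to 350 in darkness (101 and 130 without *phyB-GFP ΔC* dark replicates 2 and 3, 110 without *phyB-GFP FL* dark replicate 3) and 163 to 366 in red light (163 and 173 without *phyB-GFP ΔC* red light replicates 2 and 3). Leaving out each library in turn, values that changed sign ranged as follows. For red light, *SAMDC3* in *phyB-GFP FL* lay between -0.23 and 0.138, *SPDS2* in *phyB-GFP ΔC* between -0.00385 and 0.153 and *ACL5* there between -0.0532 and 0.0278. Between the lines, *SPMS* in darkness lay between -0.0637 and 0.0569, and in red light *SAMDC1* between -0.0291 and 0.0142, *ADC1* between -0.0146 and 0.082 and *ACL5* between -0.0487 and 0.0462. In the interaction, *SAMDC3* lay between -0.326 and 0.044, *ADC2* between -0.0173 and 0.13, *SPDS1* between -0.0388 and 0.0515 and *SPDS2* between -0.0751 and 0.0898. The interaction of *SAMDC2* stayed between -1.12 and -0.983, with an adjusted p of at most 0.0296. The cause of these shifts was not tested. *SAMDC3* had the fewest counts, 100 in its lowest library, and intervals cover the spread between 3 libraries per group.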
